A study of Mus musculus with 18 samples.

Results

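The genes described here are the matrix proteases of mouse small cell lung cancer (SCLC) and their inhibitors. They were chosen by name as 41 of the 46078 genes in the RNA-seq count table, namely 16 matrix metalloproteinases (MMPs), 4 tissue inhibitors of metalloproteinases (TIMPs), 17 ADAMTS proteases and 4 genes of the plasminogen activator system, Plau, Plat, Plaur and Serpine2. ATAC-seq gave 42 of its 111664 peaks at their start sites, where the middle of the peak lay within 1000 bp of an annotated transcript start. MMPs are zinc enzymes that cut collagens, proteoglycans and other proteins around cells, most are made as inactive proenzymes, and TIMPs block them by binding the active site. ADAMTS enzymes carry thrombospondin repeats that anchor them in the matrix, and among their substrates are aggrecan, versican and the ends of procollagens. The plasminogen activators make plasmin, which degrades fibrin and can activate several proMMPs, and all these enzymes are known for matrix turnover in tumor invasion and in tumor stroma.

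RNA-seq and ATAC-seq each had 9 libraries, 3 of each of 3 genotypes. By the labels, TKO mice carried conditional alleles of Rb1, Rbl1 and p53 (the Results of the study name Rbl2 in place of Rbl1), and adenoviral Cre was delivered to mice 8 weeks old, with tumors taken 28 weeks later. TKO;Carm1KO mice (CARM1 knockout tumors) carried a conditional Carm1 allele in addition, so that CARM1, an arginine methyltransferase, is lost only where Cre acts. TKO;NfibR388K mice (NFIB mutant tumors) carried a knock-in in every cell of the body, in which the arginine of the transcription factor NFIB that CARM1 methylates is a lysine (R388K). The Methods name tumor cells sorted for the Cre reporter tdTomato (for ATAC-seq also cell lines) and the Results name tumor biopsies as the source and have both assays made from the same ones. The labels give tumors of 3 animals for each genotype. The targeted genes checked the labels only in part. Carm1 was at 97.7, 103 and 44.5 CPM in TKO, 63.4, 79.1 and 50.8 in CARM1 knockout and 100.4, 104 and 102 in NFIB mutant tumors, with a log2 fold change of -0.34 in the knockout (edgeR adjusted p = 0.41), and since the deleted exons are not given, a count over the whole gene does not check the deletion. Nfib was at 420.2, 579.9 and 571 CPM in TKO, 74.5, 216 and 87.2 in CARM1 knockout and 105, 83.3 and 91.4 in NFIB mutant tumors, and counts cannot show the change of its residue. The libraries held 15848866 to 20915057 RNA-seq counts on genes and 26917178 to 47653979 ATAC-seq counts on peaks, and levels are given as counts per 1000000 counted reads (CPM). A count of 3 is the limit that a count of 0 allows, for counting error only. By library totals it came to 0.143 to 0.189 CPM in RNA-seq. On the scaled levels given here, 3 counts were 0.131 CPM in TKO replicate 2. Reads outside annotated genes made up 9.995 to 12.22% in TKO and 3.647 to 5.172% in the mutant libraries, so this measure separates TKO from both mutants as genotype does, and the part it plays in the differences below was not tested.

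The label SCLC was checked against marker genes before the proteases were compared. The 12 neuroendocrine markers, among them Chga, summed to 1745, 1696 and 3938 CPM in TKO, 59.3, 189 and 1820.2 in CARM1 knockout and 44.6, 33.5 and 51.3 in NFIB mutant tumors. TKO libraries and CARM1 knockout replicate 3 were therefore rich in them, and the other mutant libraries were low. The 10 fibroblast markers, among them the collagen genes Col1a1 and Col3a1, summed to 187, 187 and 138 CPM in TKO, 18625, 15583 and 27468 in CARM1 knockout and 13442, 10771 and 17033 in NFIB mutant tumors. Col1a1 was at 0.288 to 3.85 CPM in TKO and at 2372 to 10055 CPM in the mutants. The 10 leukocyte markers summed to 54.4, 4.29 and 3.63 CPM in TKO, 886, 182 and 2671 in CARM1 knockout and 442, 587 and 28.3 in NFIB mutant tumors, with Cd3e, a T cell gene, and S100a9, a neutrophil gene, at 0 in all 9 libraries. The 6 smooth muscle and pericyte markers summed to 4.87 to 11.2 CPM in TKO, 381 to 1651 in CARM1 knockout and 111 to 429 in NFIB mutant tumors, the 4 mesothelial markers to 0.399 to 14.7, 5.56 to 94.7 and 44.7 to 93.8, the 8 lung epithelial markers to 282 to 632, 2.78 to 877 and 2.86 to 1066 and the 6 endothelial markers to 3.12 to 17.4, 2.57 to 11.5 and 0.486 to 4.56. Median fibroblast markers were at 305 to 703 CPM in the mutant libraries, but some other sums rested on few genes. Smooth muscle and pericyte medians were 0.758 to 9.02 CPM in CARM1 knockout and 4.32 to 8.63 CPM in NFIB mutant tumors. Mesothelial medians were 0 to 0.983 CPM in the mutants, and the leukocyte median of NFIB mutant replicate 1 was 0.213 CPM. Fibroblasts, smooth muscle cells and leukocytes make many of the proteases described here, so their sums are values that moved with the results below, and their part in them was not tested. In bulk libraries, fewer cells of a type and less RNA per cell cannot be told apart.

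Most of the protease genes had more transcripts in the mutant tumors than in TKO. Of the 41 genes, 39 had enough counts to be tested, and Timp4 and Adamts19 did not. Calls rested on edgeR's quasi-likelihood test over all genes, with Benjamini-Hochberg adjusted p below 0.1 and a log2 change of 0.8 or more in size. In CARM1 knockout tumors 25 of the 39 were called higher and 3 lower, where 38.8% of all 15514 genes tested were called, 20.5% higher and 18.3% lower. In NFIB mutant tumors 25 were called higher and 6 lower, where 45.8% of all genes were called, 22.3% higher and 23.5% lower. Of the 10 fibroblast markers, 9 were called higher in the knockout and 8 in the NFIB mutant. The median log2 fold change of the 39 genes was 3.37 and 2.80, and that of all genes tested was -0.03 and -0.05. All 3 mutant libraries lay above all 3 TKO libraries for 22 of the 39 genes in CARM1 knockout tumors (27.3% of all genes) and for 26 in NFIB mutant tumors (27.2%), and they lay below them for 5 (27.5%) and 6 (30.5%). Scaling by library totals alone, which lowered the median of all genes by 0.27 and 0.33 on the log2 scale, gave 23 higher and 3 lower for the knockout, and for the NFIB mutant 25 higher with 6 lower.

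Both comparisons use the same TKO libraries, so they are not independent. Mmp17, Adamts10 and Adamts20 were the genes called lower in the knockout, and they were called lower in the NFIB mutant as well. Timp3 and Adamts16 were called in CARM1 knockout tumors alone, and Mmp13, Mmp24, Adamts17, Plat and Serpine2 in NFIB mutant tumors alone, and edgeR called none of them between the mutants. The 6 tested genes called in neither were Mmp12, Mmp15, Adamts1, Adamts6, Adamts8 and Adamts18. No gene was called in opposite directions. Leaving out CARM1 knockout replicate 3, the knockout library rich in neuroendocrine transcripts, gave 24 higher and 5 lower in that comparison.

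**Figure D1:**
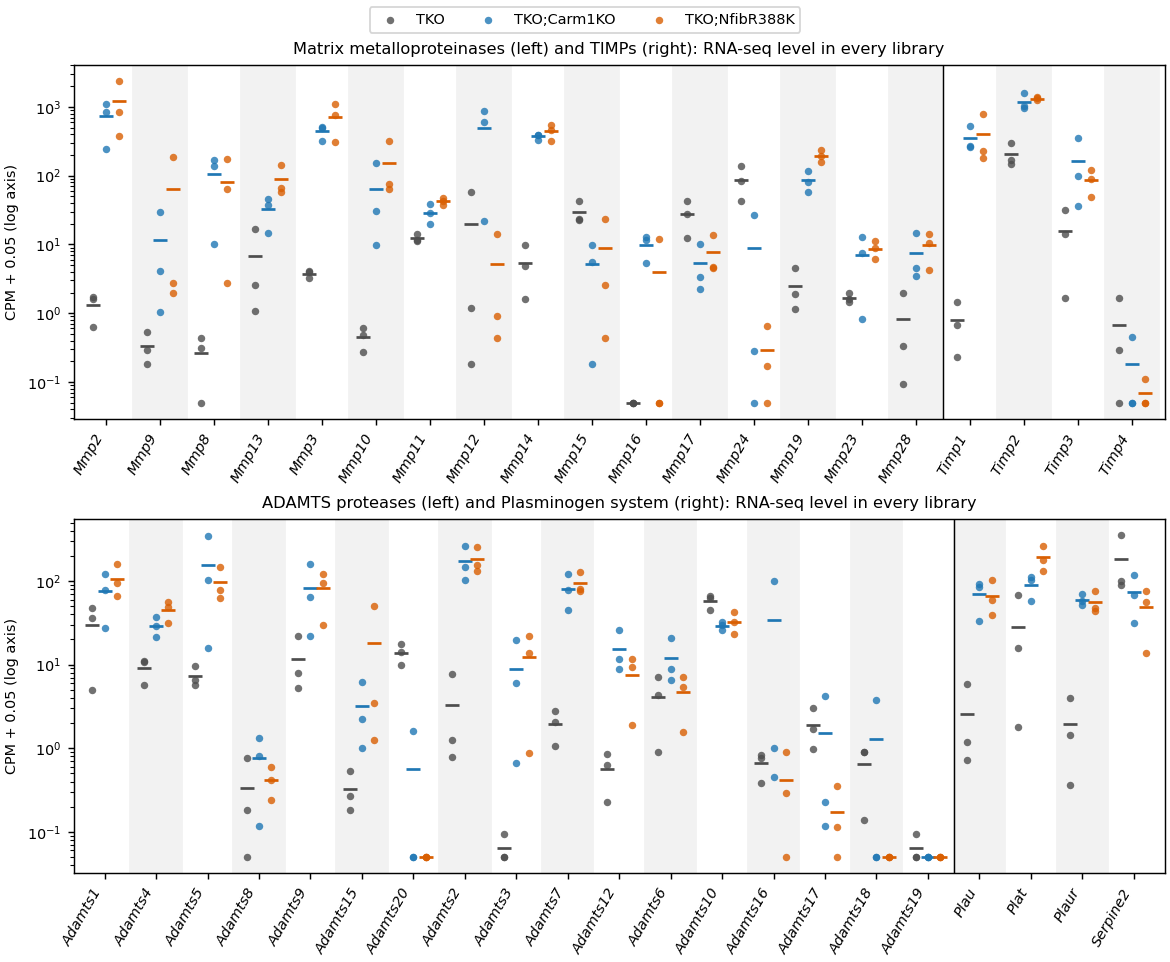
RNA-seq levels of the protease and inhibitor genes in each of the 9 libraries, as CPM + 0.05 on a log axis, with 1 column per gene grouped by family, points for libraries and bars for the mean of each genotype. Mmp2, Mmp3, Mmp14 and Timp1 are under 10 CPM in the 3 TKO libraries and above 200 CPM in nearly every mutant library, where Timp1 falls to 182 CPM in NFIB mutant replicate 2, and Mmp24 and Adamts20 show the opposite order.

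The gelatinases Mmp2 and Mmp9 degrade denatured collagen and the type IV collagen of basement membranes. Mmp2 (ENSMUSG00000031740, chromosome 8, 92827291 to 92853420) was at 0.577, 1.57 and 1.68 CPM in TKO, 840.4, 1113 and 241 in CARM1 knockout and 846, 2401 and 373 in NFIB mutant tumors. Every mutant library held over 200 CPM where no TKO library reached 2 CPM, and the groups did not overlap. Mmp2 rose by a log2 fold change of 9.15 (standard error 1.104, edgeR adjusted p = 0.00138) in CARM1 knockout and of 9.87 (standard error 1.13, edgeR adjusted p = 0.000938) in NFIB mutant tumors. Mmp9 was at 0.24, 0.131 and 0.487 CPM in TKO, 3.9996, 0.991 and 30.001 in CARM1 knockout and 2.74, 189 and 1.91 in NFIB mutant tumors. It lay above TKO in all 6 mutant libraries, but 1 library of each mutant, knockout replicate 3 and NFIB mutant replicate 2, held most of it. Mmp9 was called higher in both mutants, with log2 fold changes of 5.32 (standard error 2.14, edgeR adjusted p = 0.0865) and 7.78 (standard error 2.36, edgeR adjusted p = 0.0312). Without NFIB mutant replicate 2 its log2 fold change there was 2.997, and without knockout replicate 3 it was 3.13 in the knockout, and neither was called. The knockout call was also lost without knockout replicate 1 (5.73) or any 1 TKO library (4.97 to 5.95). The leukocyte gene Itgam was at 3.12, 0.0437 and 0.133 CPM in TKO, 92.3, 13.9 and 293 in CARM1 knockout and 0.0608, 186 and 0.826 in NFIB mutant tumors, so it was highest within each mutant in the library that was also highest for Mmp9.

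Stromelysins cut proteoglycans and laminin and can activate other proMMPs. Mmp3 (ENSMUSG00000043613, chromosome 9, 7445822 to 7455975) was at 4.04, 3.98 and 3.15 CPM in TKO, 518, 490.0 and 315 in CARM1 knockout and 749.9, 1109 and 304 in NFIB mutant tumors. The 3 TKO libraries lay within 1 CPM of each other, and the lowest mutant library was at 304 CPM. Its log2 fold changes were 6.89 (standard error 0.56, edgeR adjusted p = 0.000425) and 7.596 (standard error 0.57, edgeR adjusted p = 0.000285). Mmp10, on the same chromosome, was at 0.432, 0.569 and 0.222 CPM in TKO, 154, 30.5 and 9.83 in CARM1 knockout and 75.1, 319 and 64.5 in NFIB mutant tumors. The groups did not overlap, but the mutant libraries spread widely among themselves, and the log2 fold changes were 7.29 (standard error 1.34, edgeR adjusted p = 0.00631) and 8.53 (standard error 1.403, edgeR adjusted p = 0.00325). Mmp11, named stromelysin 3 and known from tumor stroma, rose less, by 1.24 and 1.79 on the log2 scale (edgeR adjusted p = 0.0112 and 0.00231), from 11.1 to 14.1 CPM in TKO to 19.7 to 46.9 CPM in the mutants.

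Collagenases open the triple helix of fibrillar collagens. Mmp8, the collagenase first known from neutrophils, was at 0.384, 0.262 and 0 CPM in TKO, 167, 10.03 and 138 in CARM1 knockout and 175, 63.1 and 2.73 in NFIB mutant tumors. TKO libraries held under 1 CPM and all mutant libraries more, with NFIB mutant replicate 3 the lowest of the 6. The log2 fold changes were 8.898 (standard error 1.98, edgeR adjusted p = 0.0124) and 8.51 (standard error 1.95, edgeR adjusted p = 0.0115). Mmp13, the main interstitial collagenase of the mouse, was at 16.6, 2.49 and 1.02 CPM in TKO, 46.4, 14.6 and 37.4 in CARM1 knockout and 57.6, 142 and 65.3 in NFIB mutant tumors. TKO replicate 1 exceeded knockout replicate 2, so those groups overlapped, and the log2 fold change of 2.29 was not called (edgeR adjusted p = 0.104) in knockout tumors. All NFIB mutant libraries were above TKO, and Mmp13 rose by 3.72 (standard error 1.05, edgeR adjusted p = 0.0239). Without TKO replicate 1 Mmp13 was called in the knockout too, and the 2 values were 4.24 and 5.66. DESeq2, a filter of at least 10 counts in every library and a replicate block also gave that knockout call (2.26 to 2.84).

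Mmp12, the elastase of macrophages, was at 58.4, 1.14 and 0.133 CPM in TKO, 598, 22.1 and 859 in CARM1 knockout and 0.851, 14 and 0.381 in NFIB mutant tumors. The libraries of every genotype spread over a wide range, and Mmp12 was called in neither mutant (log2 fold changes of 4.63 and -1.97, edgeR adjusted p = 0.147 and 0.465). TKO replicate 1 held most of its TKO reads, and without that library the values were 9.599, which was called, and 3.01. Knockout replicates 1 and 3, its highest libraries, were also the 2 highest for the macrophage gene Adgre1, at 25.1 and 43 CPM, where NFIB mutant replicates 1 and 3 held 0 and 0.191 CPM. NFIB mutant replicate 2, which had the highest leukocyte marker sum of its genotype (587 CPM), held 14 CPM of Mmp12.

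The proximal promoters are shown because 4 of the 5 genes of this set in the Mmp cluster of chromosome 9, and Plaur, carry an AP-1 motif. FOS and JUN proteins bind this sequence. RefSeq promoters (GRCm38.p6, 250 bases before to 50 after a start) were found for 25 of the 41 genes, 27 promoters in all. The AP-1 letters TGANTCA, which read the same way on both strands, were in 5 of the 27 (18.5%) and in 7.81% of all 32851 promoters. The TATA box letters TATAAA on the strand of the gene were also in 5 (18.5%, against 8.32% of all promoters). The nuclear factor I letters TTGGC, on either strand, were in 14 (51.9%, against 46.7%). The stretches below run from 130 bases before to 20 after the start, 5′ to 3′ on the plus strand, which is the strand of all 6 genes. Capitals mark AP-1 and TATA letters, and Mmp8, which rose as well, is shown as one without either. The first promoter of Mmp12, near the annotated 5′ end of the gene, also holds neither and is not shown.
Mmp3 promoter, chr9:7445692-7445841: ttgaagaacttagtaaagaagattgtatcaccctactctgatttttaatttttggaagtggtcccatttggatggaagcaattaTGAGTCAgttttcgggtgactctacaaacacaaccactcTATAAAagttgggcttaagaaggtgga
Mmp10 promoter, chr9:7502212-7502361: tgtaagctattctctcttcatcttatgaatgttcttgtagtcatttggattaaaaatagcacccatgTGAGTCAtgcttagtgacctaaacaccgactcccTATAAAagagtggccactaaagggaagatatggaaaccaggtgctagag
Mmp13 promoter, chr9:7272384-7272533: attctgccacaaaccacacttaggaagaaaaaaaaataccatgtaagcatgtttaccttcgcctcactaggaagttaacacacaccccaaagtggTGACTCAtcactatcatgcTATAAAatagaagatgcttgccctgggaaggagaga
Mmp12 second promoter, chr9:7347244-7347393: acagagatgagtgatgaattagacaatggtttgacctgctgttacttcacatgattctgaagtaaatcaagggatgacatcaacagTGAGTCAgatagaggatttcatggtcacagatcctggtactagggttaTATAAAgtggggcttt
Plaur promoter, chr7:24462353-24462502: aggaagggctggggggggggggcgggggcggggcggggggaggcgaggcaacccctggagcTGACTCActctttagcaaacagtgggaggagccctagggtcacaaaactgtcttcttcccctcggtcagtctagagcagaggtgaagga
Mmp8 promoter, chr9:7558299-7558448: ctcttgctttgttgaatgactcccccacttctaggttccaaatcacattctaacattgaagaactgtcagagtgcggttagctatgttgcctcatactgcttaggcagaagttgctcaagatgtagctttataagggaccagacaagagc
The AP-1 letters began 46 bases before the start in Mmp3, 63 in Mmp10, 35 in Mmp13, 44 in the second promoter of Mmp12 and 69 in Plaur. TATAAA began 7, 29 and 16 bases before the start in Mmp3, Mmp10 and Mmp13, and after the start in the second promoter of Mmp12. Of the 5 genes with AP-1 letters, Mmp3, Mmp10 and Plaur were called higher in both mutants, Mmp13 in the NFIB mutant and Mmp12 in neither. A match of letters is a description of these windows and does not show that a factor binds there.

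Membrane-type MMPs are anchored at the cell surface, and they moved in both directions. Mmp14 (ENSMUSG00000000957, chromosome 14, 54431612 to 54445364), known as MT1-MMP, cuts collagen around cells and activates proMMP2 together with TIMP2. It was at 4.76, 9.71 and 1.55 CPM in TKO, 390.3, 335 and 390.5 in CARM1 knockout and 466, 542 and 322 in NFIB mutant tumors, with no overlap and with mutant libraries close to each other. Mmp14 rose by 6.12 (standard error 0.67, edgeR adjusted p = 0.00106) and 6.37 (standard error 0.68, edgeR adjusted p = 0.00077). Mmp16, MT3-MMP, which also activates proMMP2, was at 0 CPM in the 3 TKO libraries, 11.7, 5.37 and 12.7 in CARM1 knockout and 0, 0 and 11.8 in NFIB mutant tumors. In TKO it was not detected, and against a floor of 3 counts per TKO library the knockout level was at least 72.8-fold higher, with edgeR adjusted p = 0.0621. In NFIB mutant tumors its call (edgeR adjusted p = 0.0719) rested on replicate 3, the one library with any reads, and without that library neither genotype held a Mmp16 read. The call was lost as well without any 1 TKO library or without knockout replicate 1 or 2 (9.13 to 9.21). The knockout call of Mmp16 was also lost without knockout replicate 1 (10.404), without replicate 2 (10.81) and without any 1 TKO library (10.45 to 10.48).

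Mmp24 (ENSMUSG00000027612, chromosome 2, 155775342 to 155818366), MT5-MMP, is known from neurons, where it cuts N-cadherin. It was at 137, 42.6 and 82.8 CPM in TKO, 0, 0.233 and 26.3 in CARM1 knockout and 0.608, 0.123 and 0 in NFIB mutant tumors. TKO libraries were high and the mutants near 0 except knockout replicate 3, the mutant library with the highest neuroendocrine sum. Mmp24 fell in NFIB mutant tumors, with a log2 fold change of -8.44 (standard error 2.45, edgeR adjusted p = 0.0267), and in knockout tumors its log2 fold change was -3.301 (standard error 1.87, edgeR adjusted p = 0.195), not called, or -9.35 and called without replicate 3. Mmp17, a membrane-type MMP held by a lipid anchor, was at 27.3, 43.4 and 12.3 CPM in TKO, 3.32, 2.22 and 10.2 in CARM1 knockout and 13.7, 4.56 and 4.7 in NFIB mutant tumors. Both mutants were called lower, with log2 fold changes of -2.39 (standard error 0.78, edgeR adjusted p = 0.0457) and -1.85 (standard error 0.76, edgeR adjusted p = 0.0814), although TKO replicate 3 was below NFIB mutant replicate 1. These calls were lost without TKO replicate 2 (-1.92 and -1.37), in the knockout also without its replicate 1 (-2.15) or 2 (-2.02), and in the NFIB mutant also without TKO replicate 1 (-1.85) or its own replicate 2 (-1.58) or 3 (-1.59). Mmp15, MT2-MMP, was at 23.3, 22.9 and 42.8 CPM in TKO, 0.136, 5.48 and 9.72 in CARM1 knockout and 23.6, 2.53 and 0.381 in NFIB mutant tumors, with log2 fold changes of -2.53 and -1.74 that were not called (edgeR adjusted p = 0.224 and 0.367).

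Of the MMPs outside these classes, Mmp19 was at 1.11, 1.88 and 4.43 CPM in TKO, 118, 79.9 and 57.5 in CARM1 knockout and 235, 196 and 156 in NFIB mutant tumors. No library of a mutant overlapped TKO, and Mmp19 rose by 5.098 (standard error 0.57, edgeR adjusted p = 0.00109) and 6.301 (standard error 0.6, edgeR adjusted p = 0.000503). Mmp23 and Mmp28 (epilysin) stayed under 20 CPM in every library and were called higher in both mutants, with log2 fold changes of 2.09 and 2.404 for Mmp23 (edgeR adjusted p = 0.0849 and 0.0507) and of 3.28 and 3.65 for Mmp28 (edgeR adjusted p = 0.0731 and 0.048). The knockout calls of Mmp23 and Mmp28 were lost without knockout replicate 2, at 1.35 and 2.37, and without TKO replicate 1, at 2.09 and 2.9, and without TKO replicate 2, at 1.99 and 2.73. Mmp23 lost it as well without any other single library except knockout replicate 3, at 2.04 to 2.26. In the NFIB mutant, the calls of both were lost without TKO replicate 1 (2.39 and 3.26), that of Mmp23 also without TKO replicate 2 (2.31) or NFIB mutant replicate 3 (2.203), and that of Mmp28 also without NFIB mutant replicate 1 (3.27). Without TKO replicate 3, the values of Mmp28 were 5.48 and 5.83. Mmp19, Mmp24 and Mmp28 share 22.3, 13.6 and 12% of their exon bases with genes on the opposite strand, whose reads could not be told apart because the strand setting of the counting is not given.

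Over the whole family, 11 of the 16 MMP genes rose and 1 fell in CARM1 knockout tumors, with a median log2 fold change of 4.87, and 12 rose and 2 fell in NFIB mutant tumors, with a median of 5.01 (4.29 with Mmp16 at its lower bound), where 20.5 and 22.3% of all genes rose and 18.3 and 23.5% fell. To compare levels between genes, CPM was divided by the length of the exons in kb. MMP transcripts then summed to 30.9 to 60.9 CPM per kb in TKO, 558 to 908 in CARM1 knockout and 468 to 1815 in NFIB mutant tumors. The 10 fibroblast markers were at 187 CPM or less in sum in each TKO library and at 10771 CPM or more in each mutant library, so they moved with this sum. The leading gene of the family also differed. Mmp24 held 29.4 to 48.1% of the MMP sum per kb in TKO and was first in each of the 3 libraries, and it held 0 to 1.01% in the 6 mutant libraries. Mmp3 held 31.4 to 42.6% and Mmp2 12.8 to 45% in the mutants, where one of these 2 was first in every library, against 3.68 to 7.15% and 0.281 to 1.51% in TKO.

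**Figure D2:**
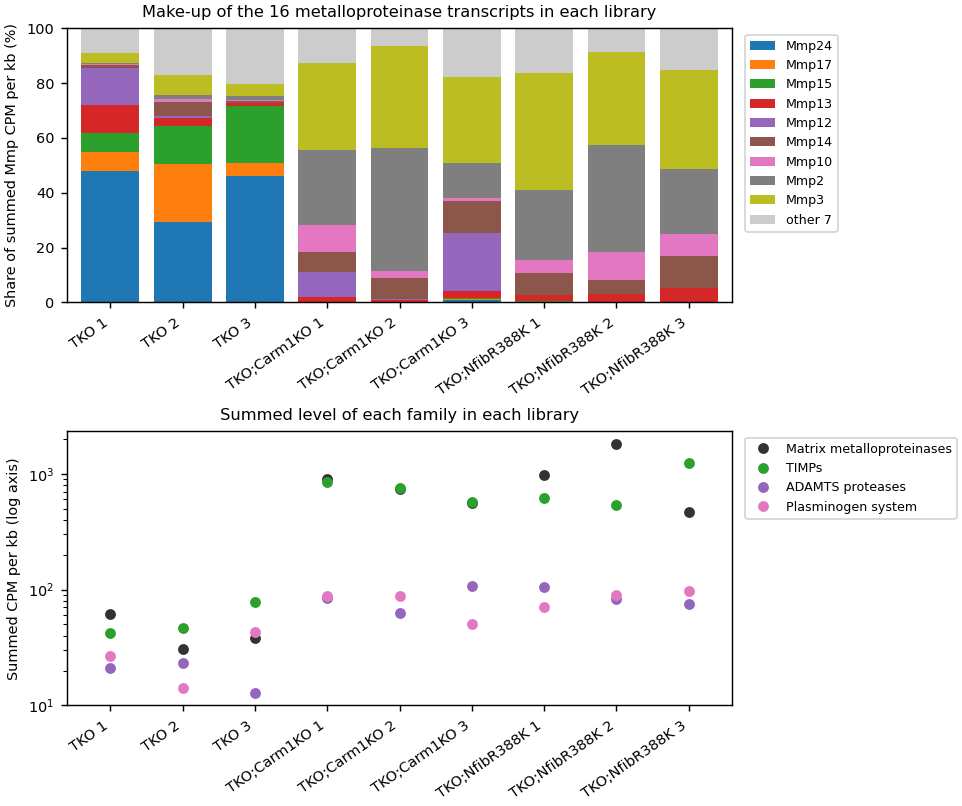
The upper panel stacks the share of each MMP gene in the summed MMP level per kb of exon in each library, in percent, and the lower panel plots the summed level per kb of the MMP, TIMP, ADAMTS and plasminogen system genes on a log axis. Mmp24 is the tallest block in the 3 TKO libraries and Mmp2 or Mmp3 in the 6 mutant libraries, and all 6 mutant libraries lie above all 3 TKO libraries in each family, with MMP sums of 30.9 to 60.9 CPM per kb in TKO and 468 to 1815 in the mutants.

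Of the 4 TIMPs, Timp1 and Timp2 rose in both mutants. Timp1 (ENSMUSG00000001131, chromosome X, 20870166 to 20874735), which inhibits most secreted MMPs, was at 0.625, 1.4 and 0.177 CPM in TKO, 527, 267 and 259 in CARM1 knockout and 229, 182 and 786 in NFIB mutant tumors. TKO libraries stayed under 2 CPM and no mutant library under 180 CPM, and Timp1 rose by 8.89 (standard error 1.02, edgeR adjusted p = 0.0012) and 9.07 (standard error 1.03, edgeR adjusted p = 0.000909). Timp2 (ENSMUSG00000017466, chromosome 11, 118301069 to 118355740), which inhibits MMPs and bridges proMMP2 to MMP14, was at 145, 170.1 and 303 CPM in TKO, 956, 1568 and 1014 in CARM1 knockout and 1338, 1243 and 1373 in NFIB mutant tumors. It was the one TIMP with over 100 CPM in every TKO library, and it rose by 2.52 (standard error 0.34, edgeR adjusted p = 0.002) and 2.68 (standard error 0.34, edgeR adjusted p = 0.00126) without overlap. Timp3, which binds to the matrix and also inhibits ADAMTS enzymes, was at 31.9, 13.9 and 1.6 CPM in TKO, 35.9, 356 and 98.7 in CARM1 knockout and 120.2, 88.5 and 48.2 in NFIB mutant tumors. The TKO libraries spread widely and knockout replicate 2 stood far above the other knockout libraries, and Timp3 was called in the knockout, with 3.37 (standard error 1.15, edgeR adjusted p = 0.0533), and not in the NFIB mutant, with 2.44 (standard error 1.11, edgeR adjusted p = 0.106). Without knockout replicate 2 its value was 2.096, and without TKO replicate 2 it was 3.29, neither of them called. The NFIB mutant value of Timp3 was called without TKO replicate 1 (3.48), without knockout replicate 1 (2.45) or 2 (2.45), and also by DESeq2, with a filter of at least 10 counts in every library, in a fit of only the genotypes compared and with a replicate block (2.39 to 2.83). Timp3 shares 21.3% of its exon bases with Syn3 on the other strand. Timp4 did not exceed 1.64 CPM in any library and was not tested.

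Per kb of exon, the TIMPs summed to 42 to 78.5 CPM in TKO, 564 to 844 in CARM1 knockout and 535 to 1244 in NFIB mutant tumors. Timp2 made up 88.9 to 99.1% of this sum in TKO and 28.3 to 59.7% in the mutants, where Timp1 took most of the rest. The ratio of TIMP to MMP transcripts per kb was 0.689 to 2.05 in TKO, 0.929 to 1.02 in CARM1 knockout and 0.295 to 2.66 in NFIB mutant tumors. The ranges overlapped, with NFIB mutant replicate 2 the lowest and NFIB mutant replicate 3 the highest of all 9 libraries.

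Among the ADAMTS proteases, 9 of the 16 tested rose and 2 fell in CARM1 knockout tumors (median log2 fold change 2.24), and 8 rose and 3 fell in NFIB mutant tumors (median 2.08). Of all genes, 20.5 and 22.3% rose and 18.3 and 23.5% fell. The fibroblast sums moved with this family as with the MMPs. Adamts2 and Adamts3, which remove the N-terminal propeptides of fibrillar procollagens, were both called higher. Adamts2 (ENSMUSG00000036545, chromosome 11, 50602084 to 50807573) was at 1.2, 0.744 and 7.71 CPM in TKO, 148, 102 and 265 in CARM1 knockout and 257, 154 and 133 in NFIB mutant tumors, with no overlap between groups. It rose by 5.73 (standard error 0.98, edgeR adjusted p = 0.00471) and 5.81 (standard error 0.98, edgeR adjusted p = 0.00354). Adamts3 was at 0, 0.0437 and 0 CPM in TKO, 6.03, 19.6 and 0.618 in CARM1 knockout and 22.2, 13.7 and 0.826 in NFIB mutant tumors, which is a single read over all TKO libraries. Replicate 3 of each mutant was under 1 CPM and the other 4 mutant libraries over 6 CPM, and edgeR called the gene in both mutants (adjusted p = 0.0142 and 0.00992).

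Adamts7 and Adamts12 degrade cartilage oligomeric matrix protein and are expressed in mesenchymal tissue. Adamts7 was at 2.74, 1.01 and 2.04 CPM in TKO, 119.9, 78.8 and 45.1 in CARM1 knockout and 75.1, 127 and 79.5 in NFIB mutant tumors. The groups stood far apart, and it rose by 5.39 (standard error 0.54, edgeR adjusted p = 0.000808) and 5.602 (standard error 0.55, edgeR adjusted p = 0.000534). Adamts12 was at 0.577, 0.175 and 0.798 CPM in TKO, 11.5, 8.86 and 25.7 in CARM1 knockout and 9.3, 1.85 and 11.5 in NFIB mutant tumors, lower in level but again without overlap. Its log2 fold changes were 4.88 (standard error 0.93, edgeR adjusted p = 0.00697) and 3.85 (standard error 0.89, edgeR adjusted p = 0.0114).

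The proteoglycanases, which cut aggrecan and versican, were divided. Adamts5, the main aggrecanase of mouse cartilage, was at 9.61, 5.64 and 6.47 CPM in TKO, 102, 15.6 and 344 in CARM1 knockout and 62.3, 78.2 and 149 in NFIB mutant tumors, with each mutant library above the 3 TKO libraries. It rose by 4.41 (standard error 1.02, edgeR adjusted p = 0.0144) and 3.73 (standard error 0.99, edgeR adjusted p = 0.019). Adamts4, the other aggrecanase, rose by 1.67 and 2.301 on the log2 scale, from 5.62 to 11 CPM to 21.2 to 56 CPM (edgeR adjusted p = 0.0111 and 0.00286). Adamts9 was also called higher, at 2.81 and 2.802, with 1 knockout library below the highest TKO library, and both calls were lost without TKO replicate 2 (2.45 and 2.45), the knockout call also without TKO replicate 3 (2.63) or knockout replicate 1 (1.897). Adamts15 was at 0.48, 0.219 and 0.133 CPM in TKO, 6.17, 2.22 and 0.955 in CARM1 knockout and 49.6, 3.39 and 1.21 in NFIB mutant tumors. NFIB mutant replicate 1 stood out, and the log2 fold change of 5.997 there was 3.04 without it. In the knockout Adamts15 was called at 3.46 (edgeR adjusted p = 0.0973), a call lost without any 1 TKO library (3.17 to 4.12), knockout replicate 1 (2.501) or knockout replicate 2 (3.66). Adamts1 was not called, with 4.96 to 47.1 CPM in TKO and 27.2 to 158 CPM in the mutants, nor was Adamts8, which stayed under 2 CPM.

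Adamts20 (ENSMUSG00000022449, chromosome 15, 94270163 to 94465418), a versican-cutting enzyme needed for melanoblasts to colonise the skin, went the other way. It was at 14, 17.5 and 9.75 CPM in TKO, 1.56, 0 and 0 in CARM1 knockout and 0 in each of the 3 libraries in NFIB mutant tumors. All TKO libraries were above all mutant libraries, and in the NFIB mutant, where no read was counted, it was at least 74.1-fold lower, against a floor of 3 counts per library. The edgeR adjusted p was 0.0968 in the knockout, with a log2 fold change of -4.73, and 0.0234 in the NFIB mutant. The knockout call was lost without any 1 TKO library (-4.88 to -4.52) and without knockout replicate 2 (-4.14) or 3 (-4.09), and without knockout replicate 1, the one knockout library with reads, the fitted value was -11.005.

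Adamts10, which binds fibrillin microfibrils, fell by a small amount, from 44.7 to 66 CPM in TKO to 25.6 to 32.5 in CARM1 knockout and 23.4 to 42 in NFIB mutant tumors, without overlap. The log2 fold changes were -0.99 (standard error 0.26, edgeR adjusted p = 0.0219) and -0.83 (standard error 0.26, edgeR adjusted p = 0.0339). The second was smaller in size than the threshold of 0.8 without NFIB mutant replicate 2 (-0.63), TKO replicate 1 (-0.75), TKO replicate 2 (-0.72) or knockout replicate 3 (-0.797). Adamts16 was at 0.336, 0.787 and 0.709 CPM in TKO, 0.407, 101 and 0.955 in CARM1 knockout and 0.243, 0.863 and 0 in NFIB mutant tumors. Knockout replicate 2 alone held it, its call in the knockout (log2 fold change 5.79, edgeR adjusted p = 0.0729) was lost without any TKO library (5.52 to 6.01), and without replicate 2 the value was 0.16. Adamts17 was under 5 CPM everywhere and was called lower in the NFIB mutant alone, at -3.83 (standard error 1.67, edgeR adjusted p = 0.0962), a call lost without NFIB mutant replicate 2 or 3 or any TKO library (-4.15 to -3.26). Without knockout replicate 3 Adamts17 was called lower in the knockout as well (-3.79). Adamts6 and Adamts18 were not called, at 0.842 to 20.9 and 0 to 3.76 CPM over all libraries.

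In the plasminogen activator system the activator Plau (urokinase) and its receptor Plaur rose together. Plau (ENSMUSG00000021822, chromosome 14, 20836660 to 20843385) was at 5.81, 1.14 and 0.665 CPM in TKO, 85.1, 92.3 and 33 in CARM1 knockout and 38.8, 104 and 58.8 in NFIB mutant tumors, and every mutant library was above every TKO library. It rose by 4.79 (standard error 0.93, edgeR adjusted p = 0.00759) and 4.72 (standard error 0.92, edgeR adjusted p = 0.00626). Plaur (ENSMUSG00000046223, chromosome 7, 24462484 to 24475968), which holds urokinase at the cell surface, was at 3.94, 1.4 and 0.31 CPM in TKO, 57.7, 70.3 and 51.1 in CARM1 knockout and 43.8, 47.2 and 76.6 in NFIB mutant tumors, with every mutant library above every TKO library. It rose by 4.99 (standard error 0.82, edgeR adjusted p = 0.00407) and 4.89 (standard error 0.81, edgeR adjusted p = 0.00334).

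Plat, the tissue-type activator, was at 67.7, 15.9 and 1.73 CPM in TKO, 102, 111 and 57 in CARM1 knockout and 181, 133 and 259 in NFIB mutant tumors. TKO replicate 1 exceeded knockout replicate 3, and Plat was called in the NFIB mutant, with 2.75 (standard error 1.04, edgeR adjusted p = 0.0637), and not in the knockout, with 1.66 (standard error 1.001, edgeR adjusted p = 0.221). Without TKO replicate 1 these were 4.45 and 3.38, both called, and the call in the NFIB mutant was lost without TKO replicate 2 (2.46) or NFIB mutant replicate 1 (2.798) or 3 (2.47). Serpine2, an inhibitor of thrombin and of both activators, was at 100.2, 88.7 and 353 CPM in TKO, 119, 31.6 and 67.5 in CARM1 knockout and 76, 56.8 and 13.9 in NFIB mutant tumors. TKO replicate 3 was the highest and NFIB mutant replicate 3 the lowest library. Serpine2 was called lower in the NFIB mutant, with a log2 fold change of -1.89 (standard error 0.81, edgeR adjusted p = 0.091), and not in the knockout, with -1.31 (standard error 0.79, edgeR adjusted p = 0.222). Without TKO replicate 3 the values were -0.92 and -0.34, and the call was also lost without NFIB mutant replicate 2 (-2.0) or 3 (-1.44) or knockout replicate 3 (-1.87).

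A list of 15 regulators and partners of these enzymes was read beside them, of which 13 were tested. In CARM1 knockout tumors 8 rose and 2, A2m and Vtn, fell, and in NFIB mutant tumors 9 rose and Vtn fell, where 20.5 and 22.3% of all genes rose and 18.3 and 23.5% fell. Vtn, which encodes vitronectin, was at 208 CPM in TKO replicate 2 and at 1.68 and 3.01 CPM in the other TKO libraries. Lrp1, the endocytic receptor that clears activator and inhibitor complexes and several MMPs, rose by 3.96 and 4.502 on the log2 scale, and Furin, which activates proMMP14 and proADAMTS enzymes, by 2.68 and 2.698. Reck, a membrane inhibitor of MMPs, was not called, at 8.02 to 16 CPM in TKO and 5.54 to 31.1 CPM in the mutants. Plg, which encodes plasminogen and is made mainly by the liver, was at 0 to 0.222 CPM and not tested.

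**Figure D3:**
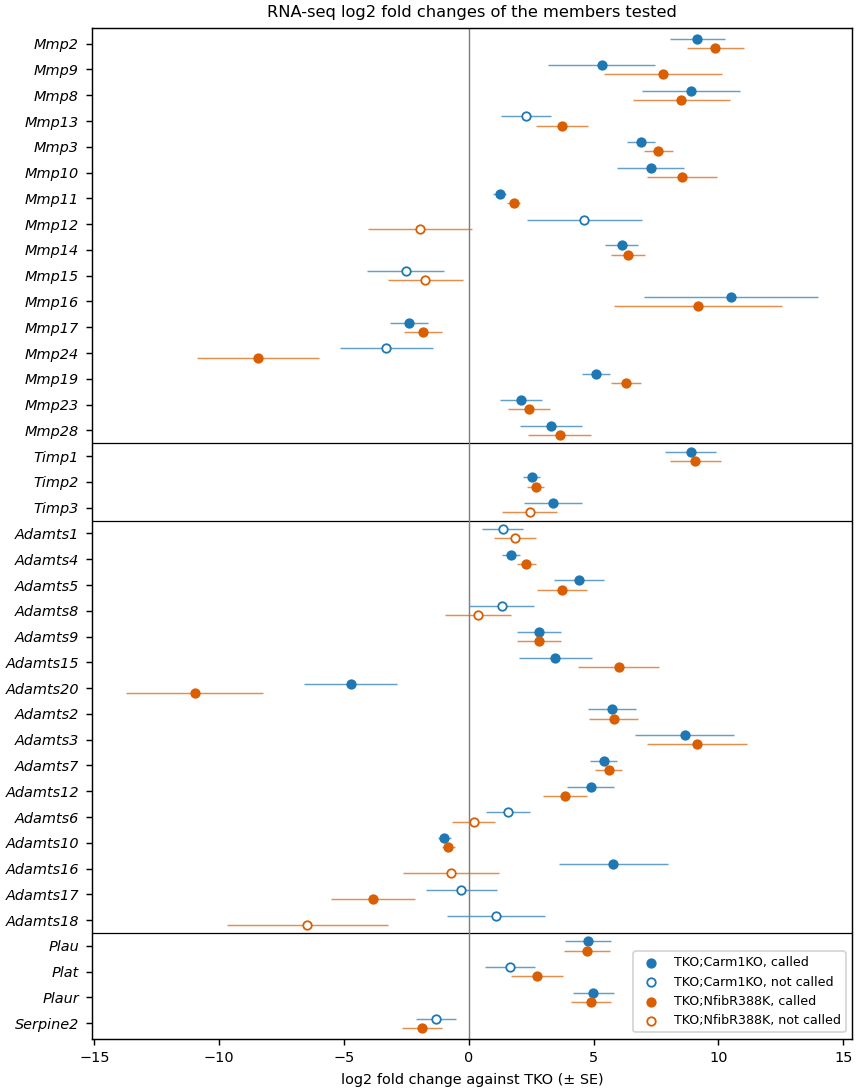
edgeR log2 fold changes against TKO of the tested protease and inhibitor genes, with bars of 1 standard error, for CARM1 knockout and NFIB mutant tumors and with filled points for called genes. Points right of 0 are higher than in TKO, and most of the MMP and TIMP points lie there in both mutants, with Mmp17, Mmp24, Adamts10 and Adamts20 among those on the left.

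Between the 2 mutants edgeR called no gene of the set, and 0% of all genes tested. At an unadjusted p under 0.05, 4 of the 39 differed, where 1414 of all 15514 genes did. Adamts16, Mmp12 and Mmp24 were higher in the knockout, by log2 differences of 6.503 (standard error 2.28), 6.6 (standard error 2.53) and 5.14 (standard error 2.18), and Mmp19 was lower there, with a difference of -1.202 (standard error 0.48). Their edgeR adjusted p ran from 0.526 to 0.543. The first 3 differences rest on few libraries, knockout replicate 2 for Adamts16, replicates 1 and 3 for Mmp12 and replicate 3 for Mmp24. DESeq2, which called 538 genes between the mutants, called Mmp12 (adjusted p = 0.0172) and no other gene of the set. For Adamts16 it gave no adjusted p. With 3 libraries against 3, exact permutation of the libraries allows no p below 0.10. For the genes of strongest rise the 95% intervals of the difference were wide, from -2.23 to 0.79 for Mmp2, -1.55 to 0.13 for Mmp3 and -1.58 to 1.21 for Timp1, so equal levels are not shown. The interval of Timp2 was narrower, from -0.79 to 0.47.

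ATAC-seq, which counts reads where a transposase could cut open chromatin, gave 42 start-site peaks for 35 of the 41 genes, 39 of them spanning a start, with a median length of 1763.5 bp. The peak calls used the same adjusted p of 0.1 and a log2 change of 0.5 or more in size. In CARM1 knockout tumors 17 of the 42 were called higher and 10 lower, where 71.1% of all 111116 peaks tested were called, 38.7% higher and 32.4% lower. In NFIB mutant tumors 19 were higher and 12 lower, where 73.3% of all peaks were called, 39.3% higher and 34% lower. These shares are near those of all peaks. The median log2 fold change of the 42 was 0.34 and 0.31, where all peaks had 0.22 in both comparisons. Scaling by library totals, which raised the median of all peaks by 0.57 in both, gave 22 higher and 7 lower, and 24 higher and 9 lower.

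Peaks at several genes that rose were called higher. The Mmp14 peak (chr14:54430286-54436293, GRCm38) was at 7.84, 6.83 and 5.96 CPM in TKO, 51.2, 49.6 and 48.4 in CARM1 knockout and 60.9, 68 and 64.9 in NFIB mutant tumors. Libraries of 1 genotype hardly differed, and the peak rose by 2.85 (standard error 0.15, edgeR adjusted p = 4.82e-06) and 3.23 (standard error 0.15, edgeR adjusted p = 2.74e-06). The Plaur peak (chr7:24461089-24463661), which holds the AP-1 letters shown above, was at 5.93, 5.28 and 6.13 CPM in TKO, 30.02, 29 and 30.7 in CARM1 knockout and 26, 28.3 and 29.1 in NFIB mutant tumors, again without overlap. It rose by 2.37 (standard error 0.18, edgeR adjusted p = 1.15e-05) and 2.27 (standard error 0.18, edgeR adjusted p = 1.18e-05). The Mmp2 peak at its first start (chr8:92826746-92828831) was at 1.63, 1.58 and 2.79 CPM in TKO, 12.2, 9.91 and 8.03 in CARM1 knockout and 11.8, 15.2 and 12.3 in NFIB mutant tumors, with log2 fold changes of 2.33 and 2.72, while a second peak at an inner start was not called (0.17 and -0.05). Start-site peaks of Mmp19, Adamts2, Adamts3, Adamts7, Adamts12 and Plat were also called higher in both mutants, at log2 fold changes of 1.05 to 2.76. Those of Adamts2 and Adamts3 depended on TKO replicate 3, without which they were 3.41 and 3.11 in the knockout and 3.32 and 2.78 in the NFIB mutant, and that of Adamts3 was not called without TKO replicate 1 (1.83 and 1.501), TKO replicate 2 (1.63 and 1.305), knockout replicate 2 (1.67) or NFIB mutant replicate 1 (1.31).

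The Mmp16 peak (chr4:17852662-17854437) was open in the libraries with Mmp16 transcripts. It was at 0.606, 0.371 and 0.93 CPM in TKO, 11.7, 8.7 and 8.9 in CARM1 knockout and 0.658, 0.602 and 13.1 in NFIB mutant tumors, so among the NFIB mutant libraries it was open in replicate 3, the only one with Mmp16 reads. Its log2 fold changes were 3.95 (standard error 1.09, edgeR adjusted p = 0.0087) and 2.93 (standard error 1.05, edgeR adjusted p = 0.028), the second 0.005 without replicate 3. The Adamts18 peak was at 8.19, 3.99 and 7.06 CPM in TKO, 0.388, 0.538 and 5.85 in CARM1 knockout and 0.418, 0.794 and 1.53 in NFIB mutant tumors, and knockout replicate 3, the one mutant library where it stayed near the TKO level, was also the one with Adamts18 transcripts (3.76 CPM). At Adamts16 the highest peak library was knockout replicate 2 (4.97 CPM), which held nearly all Adamts16 reads, but TKO replicate 2 had 3.52 CPM there with 0.787 CPM of transcript. Both assays are stated to come from the same biopsies, but the sources used here do not tie the library numbers of one assay to those of the other.

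Start sites of several genes that fell were less open. The Mmp24 peak at the first start (chr2:155773785-155776507) was at 29.7, 16.3 and 21 CPM in TKO, 5.5, 4.49 and 9.24 in CARM1 knockout and 4.42, 5.29 and 4.14 in NFIB mutant tumors, with knockout replicate 3 the highest mutant library in both assays. Its log2 fold changes were -1.799 (standard error 0.35, edgeR adjusted p = 0.00141) and -2.27 (standard error 0.35, edgeR adjusted p = 0.000395). The Adamts20 peak (chr15:94403148-94404898) was at 18.8, 21.4 and 26.6 CPM in TKO, 4.24, 1.77 and 0.822 in CARM1 knockout and 2.93, 1.25 and 1.3 in NFIB mutant tumors, without overlap. The log2 fold changes were -3.29 (standard error 0.59, edgeR adjusted p = 0.000916) and -3.61 (standard error 0.597, edgeR adjusted p = 0.000543). The peak at the 5′ end of Serpine2 was called lower in both mutants (-1.51 and -2.13), and so was a peak at an inner start (-0.99 and -1.15). With scaling by library totals the inner peak was not called (-0.42 and -0.597), nor was the 5′ peak in the knockout (-0.88). That knockout call of the 5′ peak was also lost with a filter of at least 10 counts in every library, with a replicate block (-1.41 to -1.33) and without TKO replicate 1 or 2, knockout replicate 2 or 3 or NFIB mutant replicate 2 (-1.59 to -0.96). The peak of Mmp17 was called lower as well (-0.68 and -0.85), and so was that of Mmp15 (-1.79 and -2.93), whose transcripts were not called. The peak of Adamts10 was not called (-0.06 and 0.11), although its transcripts fell. Peaks of Adamts8, Adamts19 and the first of Adamts17 were called lower in both mutants too, at log2 fold changes of -2.43 to -1.44.

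Chromatin and transcripts were set side by side for each gene. In CARM1 knockout tumors 14 of the 25 genes called higher (56%) had a start-site peak called higher, where 40.5% of all 3181 placed genes called higher had one, 6 had peaks that were not called (Mmp9, Adamts4, Adamts9, Adamts15, Adamts16 and Plau), 4 had no peak within the window, and Mmp11 had a peak called lower. Of the 3 genes called lower, Mmp17 and Adamts20 had peaks called lower (66.7%, against 57.1% of all 2814 placed genes called lower). In NFIB mutant tumors these counts were 17 of 25 with a peak called higher (68%, against 39% of all 3457 placed genes called higher), 4 not called, 3 without a peak and Mmp11, and 4 of the 6 called lower had a lower peak (66.7%, against 63.9% of all genes called lower). Mmp9, among the genes of largest log2 fold change in the NFIB mutant, had a start-site peak that was not called (-0.08 and 0.47). That peak lay near an inner start, 7062.5 bp inside the gene, spanned no start and had means of 0.614 to 0.898 CPM by genotype. The 5′ end of Mmp9 had no peak with its middle in the window. A second Mmp9 peak, counted only by overlap with the window, was called lower (-0.93 and -1.19). The middles of the 3 peaks at Mmp11 also lay within 1000 bp of starts of the neighbouring gene Chchd10, so these peaks cannot be assigned to either gene. Plau rose 4.79 and 4.72 on the log2 scale with a start-site peak at 25.4, 19.8 and 16.8 CPM in TKO, 26.5, 35.9 and 22.3 in CARM1 knockout and 23.4, 30.003 and 26.8 in NFIB mutant tumors, which was not called in either mutant (0.45 and 0.37).

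The TIMPs, Mmp12 and Adamts5 had no peak with its middle within 1000 bp of a start. When any overlap with that window counted, 40 genes had 50 peaks, with 22 higher and 11 lower for the knockout, and for the NFIB mutant 23 higher with 13 lower. A peak of Timp1 then counted (chrX:20867039-20870695), which spans its start, at 2.49, 2.41 and 2.62 CPM in TKO, 31.5, 29.6 and 26.4 in CARM1 knockout and 21, 24.3 and 43.7 in NFIB mutant tumors. It rose by 3.54 (standard error 0.29, edgeR adjusted p = 1.78e-05) and 3.57 (standard error 0.29, edgeR adjusted p = 1.52e-05), like its transcripts and without overlap. The peak of Timp2 (chr11:118352652-118356272) was at 34, 31.6 and 27.6 CPM in TKO, 23.5, 33.1 and 26.9 in CARM1 knockout and 23.4, 32.1 and 28.6 in NFIB mutant tumors and was not called (-0.16 and -0.15), with its transcripts higher in every mutant library. The peak of Timp3 was not called either (-0.32 and -0.22).

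**Figure D4:**
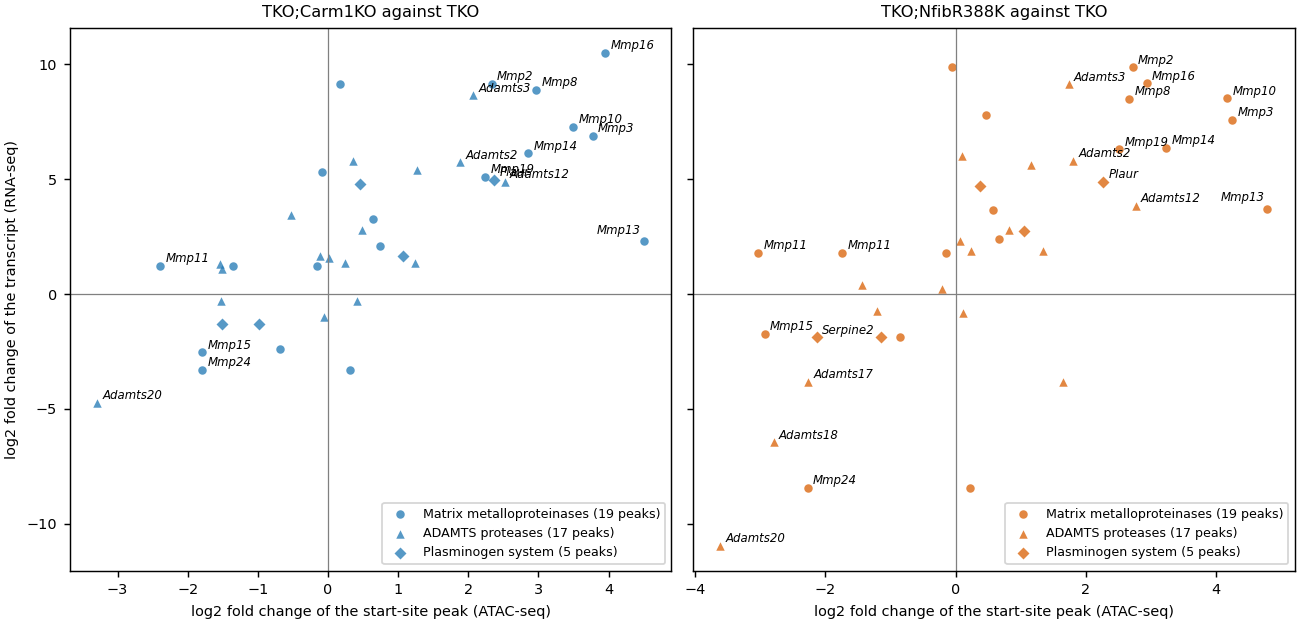
Log2 fold change of each start-site peak (ATAC-seq) against that of the transcripts of its gene (RNA-seq), for CARM1 knockout tumors (left) and NFIB mutant tumors (right) against TKO, with 1 point per peak and a marker shape per family. Mmp3, Mmp10 and Mmp2 lie at the upper right and Adamts20 and Mmp24 at the lower left, while peaks of Plau and Mmp9 lie near 0 on the ATAC-seq axis with transcripts above 4 on the RNA-seq axis. The Mmp9 peak is near an inner start, not at the 5′ end of the gene.

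Of the set, Mmp13, Mmp12, Mmp3, Mmp10 and Mmp8 lie in this order, all on the plus strand, in 295.972 kb of chromosome 9 (chr9:7272514-7568485, GRCm38). Other genes lie there too, among them Mmp1b, which shares exon bases with Mmp12 on the opposite strand. The stretch held 18 peaks, of which 17 were called higher and none lower in each mutant, with median log2 fold changes of 3.34 and 3.28 (3.15 and 3.28 with the Mmp13 peak at its lower bound). Percent called over all peaks was 38.7 higher in CARM1 knockout and 39.3 higher in NFIB mutant tumors. The 17 called peaks had means of 0.0385 to 0.61 CPM in TKO, which left little room for a lower call. The shares over all peaks also count peaks open in TKO, so they are not a like comparison. Peaks of the cluster are neighbours and are not independent. All 3 mutant libraries lay above all 3 TKO libraries in 15 of the 18 peaks in the knockout (38.2% of all peaks) and in 14 in the NFIB mutant (37.6%). The peaks summed to 4.94 to 8.07 CPM in TKO, 28.7 to 56.2 in CARM1 knockout and 32.3 to 51.4 in NFIB mutant tumors. The one peak not called lay 217.883 kb from the left end, between Mmp3 and Mmp10.

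Peaks at 4 of the starts of this stretch were called higher in both mutants. At Mmp3 (chr9:7445381-7446275), where the peak covers the AP-1 and TATA letters shown above, it was at 0.319, 0.185 and 0.0845 CPM in TKO, 3.54, 3.23 and 1.57 in CARM1 knockout and 4.21, 4.74 and 2.59 in NFIB mutant tumors. TKO libraries were near or under 0.3 CPM and mutant libraries over 1.5 CPM, and the log2 fold changes were 3.77 (standard error 0.6, edgeR adjusted p = 0.000495) and 4.24 (standard error 0.61, edgeR adjusted p = 0.000248). The Mmp10 peak (chr9:7501822-7502768) was at 0.255, 0.124 and 0.549 CPM in TKO, 6.2, 2.84 and 1.28 in CARM1 knockout and 3.53, 8.13 and 4.81 in NFIB mutant tumors, without overlap. Its order among the knockout libraries was that of the Mmp10 transcripts. Among the NFIB mutant libraries replicate 2 was highest in both assays, and replicates 1 and 3 stood in opposite order. The Mmp10 peak rose by 3.497 (standard error 0.74, edgeR adjusted p = 0.00217) and 4.17 (standard error 0.75, edgeR adjusted p = 0.000866). The Mmp13 peak (chr9:7272411-7272743) stayed under 1.5 CPM in every library and held 0, 1 and 2 counts in TKO. It was called higher in both mutants, at least 8.3-fold and 10.1-fold against a floor of 3 counts per TKO library, while Mmp13 transcripts were called in the NFIB mutant alone. At Mmp8 (chr9:7558216-7558626) the peak was at 0.255, 0.155 and 0.296 CPM in TKO, 3.1, 0.499 and 1.93 in CARM1 knockout and 3.02, 1.35 and 0.137 in NFIB mutant tumors, lowest among the mutants in NFIB mutant replicate 3, which was below all 3 TKO libraries and was the lowest mutant library for the transcript as well. Its log2 fold changes were 2.96 (standard error 1.01, edgeR adjusted p = 0.0233) and 2.66 (standard error 1.002, edgeR adjusted p = 0.0346), the second 1.65 and not called without NFIB mutant replicate 1. Mmp12 had 1 peak by overlap, called higher in both (1.98 and 2.14), with transcripts called in neither. Between the mutants none of the 18 peaks, none of the 42 start-site peaks and 0% of all peaks were called by edgeR, with 5 of the 42 and 6813 of all peaks at an unadjusted p under 0.05. DESeq2 called none of the 42, and 1060 of all peaks.

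**Figure D5:**
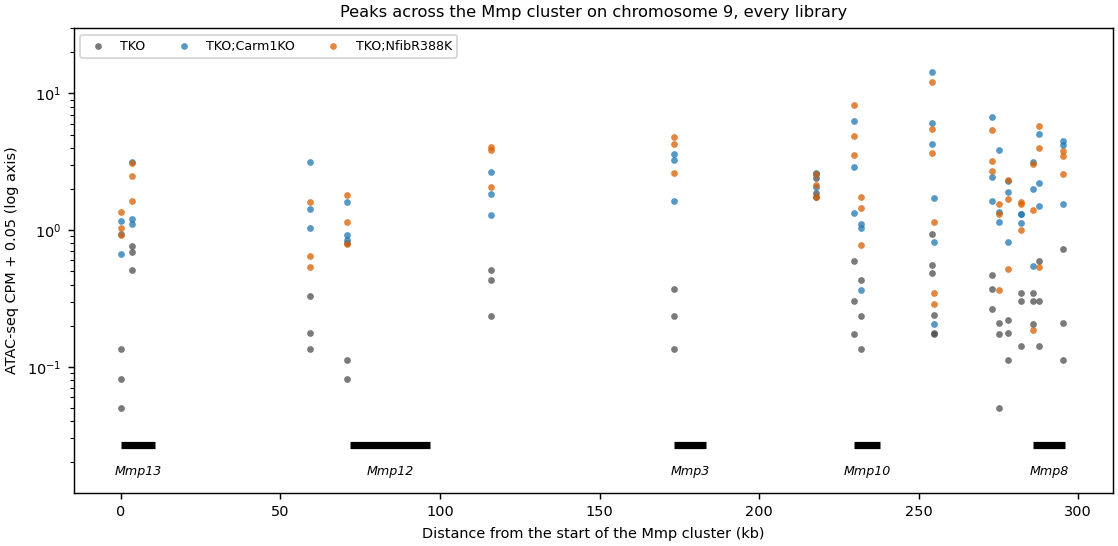
Level of the 18 ATAC-seq peaks across the Mmp cluster of chromosome 9 in each library (CPM + 0.05, log axis), by distance in kb from the left end of the cluster, with the 5 genes of the set drawn below to scale. Mean peak levels of both mutants lie above those of TKO at all 18 peaks, by the least at 217.883 kb, the one peak with no call.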

How the data were processed

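RNA-seq and ATAC-seq libraries of TKO, CARM1 knockout and NFIB mutant tumors were grouped by the genotype in the labels, and columns named C, KO and N in the tables were read as these 3 genotypes by the names the study uses. For RNA-seq, the authors trimmed the reads, mapped them to mm10 with hisat2 and deposited unnormalized counts per gene made with htseq-count, whose strand setting is not given in the sources used here and whose genes carry Ensembl identifiers although the Methods name RefSeq. For ATAC-seq, the authors mapped the reads with Bowtie2, removed duplicates with Picard and deposited unnormalized counts on 1 set of peaks, called with MACS2 by the Methods (the submitters' processing notes name Genrich) and counted with featureCounts per the file headers. The 5 summary entries of htseq-count (11.55 to 21.17% of the reads) stayed out of library sizes and tests, and no pair of libraries held identical counts.

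Genes were placed with GENCODE vM21 (GRCm38, the build of mm10), which holds 45143 of the 46078 genes. All genes and all peaks were fitted in R 4.3.3 with edgeR 4.0.16 (TMM factors, filterByExpr, robust quasi-likelihood test, Benjamini-Hochberg adjustment, 1 model of all 9 libraries of an assay, genotype as the only term), and only the values of the protease genes are given. CPM were scaled with the TMM factors. The 95% intervals are normal intervals from the standard errors, so with few libraries they are narrower than the quasi-likelihood test implies. Between the mutants the interval of Mmp11, from -1.08 to -0.036, left out 0 at an unadjusted edgeR p of 0.069. Both fits were tested on simulated data in which few features changed, and those in the CARM1 knockout alone. Scaling was therefore not tested with as large a share of changed features as was called here. DESeq2 1.42.0, other scalings, filters and thresholds, a fit of only the genotypes compared, a replicate block and leaving out each library in turn were alternatives. Tables and plots used limma 3.58.1, Python 3.11.15, numpy 2.4.6, pandas 2.3.3 and matplotlib 3.10.9.

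The genes and the lists read beside them were chosen with earlier results of these data known. Values by library were given for the TIMPs and the plasminogen system genes and, in the MMP and ADAMTS families, for up to 8 genes each that were called against TKO in at least 1 mutant, had a mean of at least 5 CPM in 1 genotype and had the largest mean absolute log2 fold change. Values by library of Mmp12, Mmp13, Mmp15, Mmp17 and Mmp19, and of the peaks of Adamts18 and Timp1, were added after they had been seen. Protein sequences were not used here. Some marker and regulator genes of the lists are not reported here.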

Additional observations from a re-analysis of the deposited data

How the results depend on the processing

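The 25 genes called higher in CARM1 knockout tumors became 15 with a filter of at least 10 counts in every library, which tests fewer genes. The 6 genes called lower in NFIB mutant tumors became 3 with that filter, 2 with no filter on low counts, 3 with a replicate block and 3 at an adjusted p under 0.05, and the causes were not tested beyond the filter itself. Leaving out each library in turn gave 17 to 24 higher and 1 to 5 lower in CARM1 knockout tumors and 21 to 26 higher and 2 to 7 lower in NFIB mutant tumors. The lowest counts higher, 17 and 21, came without TKO replicate 2, and the lower counts were 1 in the knockout without TKO replicate 2 or knockout replicate 2, 5 without knockout replicate 3, and in the NFIB mutant 2 without NFIB mutant replicate 2 and 3 without NFIB mutant replicate 3, TKO replicate 1 or TKO replicate 2. DESeq2 called 1 gene, Mmp12, higher in the knockout than in the NFIB mutant, where edgeR called 0. Leaving out libraries reversed Adamts17 in the knockout (-3.79 to 0.26 on the log2 scale) and Mmp12 in the NFIB mutant (-4.98 to 3.01), neither of which was called with all libraries. Without knockout replicate 3, Adamts17 was called lower in the knockout (-3.79). Over the start-site peaks, the alternatives gave 14 to 22 higher and 7 to 12 lower in the knockout and 15 to 24 higher and 9 to 13 lower in the NFIB mutant, and 14 to 17 of the 18 cluster peaks were higher in each run with a library left out in the knockout and 15 to 17 in the NFIB mutant. Other fits ended calls of single genes. In the knockout these were Mmp9 (no filter, replicate block), Mmp16 (no filter), Mmp17 (replicate block), Mmp23 (library totals, no filter, only the genotypes compared, replicate block) and Mmp28 (only the genotypes compared, replicate block). Of the ADAMTS genes these were Adamts15 (library totals, no filter), Adamts16 (no filter, replicate block) and Adamts20 (no filter). In the NFIB mutant these were Mmp9 (replicate block), Mmp16 (no filter, replicate block), Mmp17 (no filter, replicate block), Adamts10 (no filter) and Adamts17 (no filter, replicate block). Plat (no filter, only the genotypes compared) and Serpine2 (no filter, only the genotypes compared, replicate block) lost theirs there too. DESeq2 gave no adjusted p, and so no call, for Mmp9 and Mmp16 in either mutant and for Adamts16 in the knockout. Its log2 fold changes were 5.33 and 7.80 for Mmp9 and 5.77 for Adamts16. For the Mmp16 peak DESeq2 also gave no adjusted p in either mutant (log2 fold changes of 3.78 and 2.79). The replicate block ended the calls of the Mmp16 and Adamts3 peaks in the NFIB mutant. DESeq2 called Mmp12 in the knockout.

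The replicate numbers did not pair the samples. Deviations from the genotype means of libraries with the same number correlated at -0.26 to 0.12 in RNA-seq and at -0.15 to 0.11 in ATAC-seq, and the same number was the best partner in 3 of 9 and 4 of 9 comparisons. With the replicate block, 22 genes were higher and 2 lower in the knockout and 24 higher and 3 lower in the NFIB mutant, and 17 peaks were higher and 10 lower, and 17 higher and 11 lower. Depth limits the genes near 0 in TKO, where 3 counts were 0.131 CPM in replicate 2 and 0.133 CPM in replicate 3.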

Other observations

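Of 27 other matrix proteases, among them the remaining MMPs, ADAM proteases, tolloid proteases and cathepsins, 18 were tested, and 13 rose and none fell by edgeR in each mutant, with median log2 fold changes of 2.50 and 2.38, where 20.5 and 22.3% of all genes rose. Adamts14, the third procollagen N-proteinase beside Adamts2 and Adamts3, was at 1.92, 1.22 and 0.310 CPM in TKO, 23.9, 25.5 and 10.8 in CARM1 knockout and 26.9, 32.0 and 55.1 in NFIB mutant tumors, and rose by 4.12 and 5.04 on the log2 scale (edgeR adjusted p = 0.00468 and 0.00203). Bmp1, which removes the C-terminal propeptides of procollagens, rose by 2.61 and 2.71 (edgeR adjusted p = 0.00534 and 0.00369). Ctsk, the collagen-cutting cathepsin of osteoclasts, rose by 6.14 and 2.96 (edgeR adjusted p = 0.0154 and 0.0879), with 111 to 816 CPM in the knockout and 18.4 to 89.3 CPM in the NFIB mutant. Of the 6 ADAMTS-like genes, which hold the repeats without the protease domain, Adamtsl4 and Adamtsl5 rose in both mutants and Adamtsl2 fell in the NFIB mutant (log2 fold change -7.89, edgeR adjusted p = 0.0265).

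Inside the gene bodies of 33 of the protease and inhibitor genes lay 162 peaks that were not start-site peaks by their middles, of which 161 were tested. Some of them can still overlap the start-site window, as does the Mmp9 peak called lower above. In CARM1 knockout tumors 88 were called higher and 39 lower (54.7 and 24.2%, where 38.7 and 32.4% of all peaks were), and in NFIB mutant tumors 91 were higher and 42 lower (56.5 and 26.1%, where 39.3 and 34% of all peaks were). Peaks of 1 gene share their neighbourhood and are not independent, and no peak of the 161 was called between the mutants by edgeR.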
